A study of Mus musculus with 12 samples.

Results

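Kruppel-like factors are zinc finger transcription factors that bind GC-rich and CACCC sequences in promoters. Of this family, 9 members were followed in mouse liver: Klf2, Klf3, Klf4, Klf6, Klf9, Klf10, Klf11, Klf13 and Klf15. They were taken as the genes named by 28 of the 34945 array probesets that had a single gene in the platform annotation, and each was represented by its probeset of highest mean. All 9 passed the filter on dim probesets and were tested among 11899 genes. The arrays came from the livers of 6 male C57BL/6 mice given low-dose penicillin in the drinking water and 6 male C57BL/6 controls given no antibiotic, each taken after 7 weeks of intervention. Both groups had free access to food and water and a regular cycle of light and dark. The labels give no hour of collection, cage or dose, and penicillin cannot be told apart from any cage that the treated mice shared. Each mouse was hybridised to 1 array. Cps1, the urea cycle enzyme by which hepatocytes are known, averaged 14.13 ± 0.05 in penicillin livers and 14.16 ± 0.05 in control livers (log2 intensity, SD, n = 6 each).

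Members of the family fall into roles that overlap with timing. Klf2, Klf4, Klf6 and Klf10 can be switched on quickly by growth factors, stress or flow, much as Fos, Jun and Egr1 are. Klf9 responds to glucocorticoids and thyroid hormone, Klf15 to glucocorticoids and fasting, and Klf10 is under the control of the circadian clock in liver. Klf3 is a repressor that recruits CtBP proteins, and Klf10 and Klf11 are induced by TGF-beta. Levels were therefore set beside those of Fos, a rapid-response gene, and of Dbp, an output gene of the clock.

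The start regions of Klf2, Klf4, Klf6 and Klf13 are shown. The first 3 had their highest levels in the arrays of highest Fos, and the level of Klf13 ran beside Dbp, as described further on. Each line gives the 250 bases before the transcription start of the RefSeq gene, on GRCm38.p6, 5′ to 3′ along the gene. Capitals mark CACGTG (the E-box, read by clock and Myc-type factors) and TGACG (the core of a cAMP response element), on either strand.
Klf2, chr8:72318812-72319061, plus strand: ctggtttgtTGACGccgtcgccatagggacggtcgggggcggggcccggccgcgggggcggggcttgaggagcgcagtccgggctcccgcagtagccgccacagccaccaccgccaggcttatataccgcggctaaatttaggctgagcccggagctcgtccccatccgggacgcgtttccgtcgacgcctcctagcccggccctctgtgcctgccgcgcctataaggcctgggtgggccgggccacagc
Klf4, chr4:55532476-55532725, minus strand: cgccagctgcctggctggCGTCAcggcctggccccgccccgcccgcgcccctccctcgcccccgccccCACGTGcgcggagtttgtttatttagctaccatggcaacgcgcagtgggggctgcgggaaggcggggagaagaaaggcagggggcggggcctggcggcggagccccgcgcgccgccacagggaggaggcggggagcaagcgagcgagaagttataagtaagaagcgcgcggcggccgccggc
Klf6, chr13:5861239-5861488, plus strand: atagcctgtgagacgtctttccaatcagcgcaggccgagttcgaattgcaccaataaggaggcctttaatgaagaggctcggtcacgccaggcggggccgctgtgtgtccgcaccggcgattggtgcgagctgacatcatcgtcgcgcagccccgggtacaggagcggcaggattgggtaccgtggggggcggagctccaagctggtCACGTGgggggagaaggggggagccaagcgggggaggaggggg
Klf13, chr7:63938916-63939165, minus strand: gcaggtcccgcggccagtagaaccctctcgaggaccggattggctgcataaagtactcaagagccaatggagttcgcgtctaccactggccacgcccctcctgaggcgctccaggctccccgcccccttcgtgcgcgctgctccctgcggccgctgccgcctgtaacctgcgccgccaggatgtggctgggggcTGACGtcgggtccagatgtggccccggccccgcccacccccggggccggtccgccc
In these windows the E-box lay at positions -43 to -38 for Klf6 and -182 to -177 for Klf4, counted from the first transcribed base with -1 just before it. The windows of Klf2 and Klf13 held no E-box. TGACG lay at -241 to -237 for Klf2, -232 to -228 for Klf4 and -56 to -52 for Klf13. Of the 8 members found in the RefSeq promoter table (all but Klf10), 4 held the E-box, against 6.02% of all 32851 windows of that length. TGACG was in 5 of the 8, against 17.8% of all windows, and TGANTCA, the site of Fos and Jun dimers, in 1, Klf9, against 6.75%. The D-box TTANGTAA, which Dbp binds, was in 0 of the 8 and in 2.06% of all windows. The CArG box of serum response factor was in 0 of the 8, against 1.47%, and the full element TGACGTCA in 0, against 1.55%. GGGCGG, a sequence that these factors and Sp factors can bind, was in 7 of 8, against 32.7%, and CACCC was in 5 of 8, against 52% of all windows. The windows of the 4 printed members were rich in G and C, from 64.8% for Klf6 to 74% for Klf4. The shares over all windows were not matched for G and C, so no excess of a motif in the members can be read from them. A match is a run of letters and not a shown binding site.

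The first question was whether the level of any of these factors differed between penicillin and control livers. Klf4, Klf6, Klf10 and Klf2 had the largest differences, all towards lower levels with penicillin. Klf11 and Klf3 were lower by less, and Klf9, Klf13 and Klf15 differed by about 0.10 or less on the log2 scale. No member passed: limma, a linear model with variances moderated across genes and Benjamini-Hochberg adjustment over the 11899 genes, called 0 of 9 at an adjusted p of 0.05, and 0% of all genes. At an unadjusted p under 0.05 stood 2 of 9 members, both lower and none higher, against 3.66% of all genes on the lower side and 4.33% on the higher. In all, 7 members were lower and 2 higher, against 47.2% of all genes lower and 52.8% higher, with a median difference of -0.19 over the 9 and 0.0064 over all genes.

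**Figure D1:**
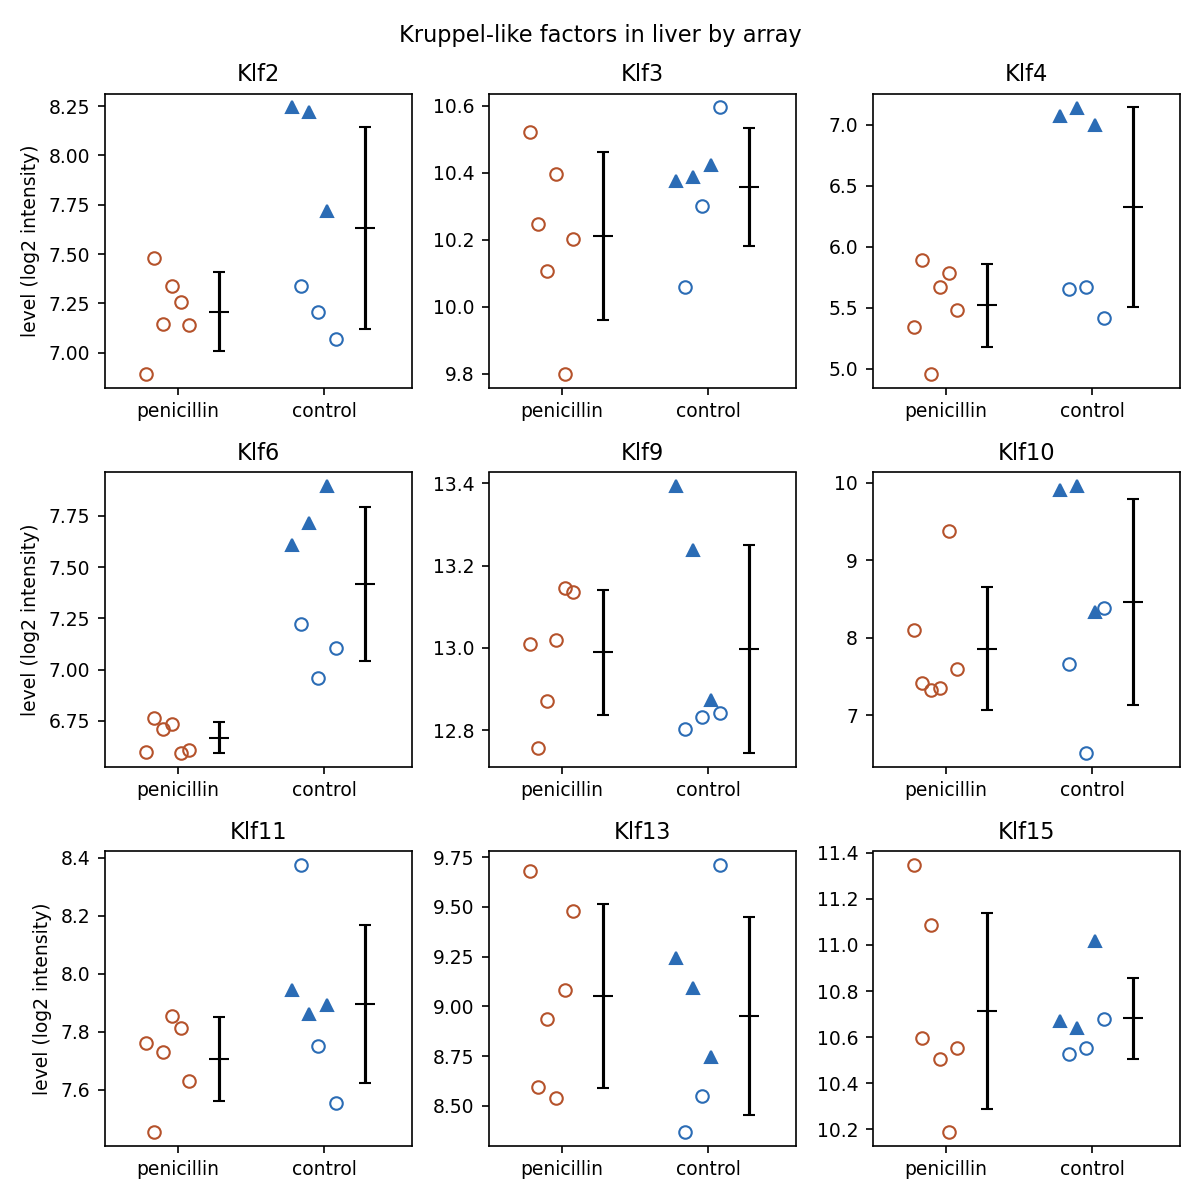
Level (log2 intensity) of each of the 9 factors on every array, with penicillin on the left and control on the right of each panel. Points are single arrays, triangles are control 1, control 3 and control 5 (the arrays of highest Fos), and bars are the mean and SD of each group (n = 6). For Klf6 the groups do not overlap, and in Klf2, Klf4 and Klf6 the triangles are the highest points.

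Klf6, a factor induced in liver injury and in activated stellate cells, showed the clearest separation. It had a lowest, median and highest level of 6.59, 6.66 and 6.77 in log2 intensity with penicillin, against 6.96, 7.41 and 7.90 in controls. Every penicillin array lay below every control, as for 0.151% of all genes (18 of 11899), and no member had all penicillin arrays above all controls, as 0.261% of genes did. The mean was 6.67 ± 0.08 with penicillin and 7.42 ± 0.37 in controls (SD, n = 6 each), a difference of -0.75 (SE 0.14, limma adjusted p = 0.265), or 1.68-fold lower. The exact permutation test over all splits of the arrays gave p = 0.00216 for Klf6 alone, two-sided, the smallest p this design allows. The control values were 7.61, 7.71 and 7.90 in control 1, control 3 and control 5, and 7.22, 6.96 and 7.10 in control 2, control 4 and control 6. The last 3 were still above all 6 penicillin arrays. Without control 1, control 3 and control 5 the difference was -0.43 (SE 0.08, limma adjusted p = 0.996). With Fos as a covariate it was -0.33 (SE 0.09, limma adjusted p = 0.999).

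Klf4, known from stem cells and from endothelial and myeloid cells, had a lowest, median and highest level of 4.95, 5.58 and 5.89 with penicillin, against 5.42, 6.33 and 7.14 in controls. It was dim, since the filter on dim probesets stood at 4.73, and its second probeset averaged 5.17 with penicillin and 5.82 in controls. The groups overlapped, since control 2, control 4 and control 6 stood at 5.65, 5.67 and 5.42, within the penicillin range. Control 1, control 3 and control 5 stood at 7.07, 7.14 and 6.99. The difference was -0.80 (SE 0.32, limma adjusted p = 0.587, exact permutation p = 0.0823), and without these 3 arrays it was -0.059 (SE 0.18).

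Klf2, a flow-responsive factor of endothelium that also keeps T cells quiescent, had a lowest, median and highest level of 6.89, 7.20 and 7.48 with penicillin, against 7.07, 7.53 and 8.25 in controls. The highest were again control 1 (8.25), control 3 (8.22) and control 5 (7.72), and the other controls lay inside the penicillin range. The difference was -0.43 (SE 0.20, limma adjusted p = 0.638, exact permutation p = 0.0996), and without the 3 arrays it was 0.0030 (SE 0.12).

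Klf10, a TGF-beta-inducible factor, varied most among the 9. It had a lowest, median and highest level of 7.32, 7.51 and 9.38 with penicillin, against 6.51, 8.36 and 9.96 in controls. The groups overlapped widely: control 1 and control 3 stood at 9.90 and 9.96, penicillin 5 at 9.38, and the lowest array of all was control 4. The difference was -0.60 (SE 0.55, limma adjusted p = 0.844), and it was 0.34 (SE 0.50) without control 1, control 3 and control 5. Single arrays moved it: it was -0.31 without control 1, -0.30 without control 3, -0.90 without penicillin 5 and -0.99 without control 4. With Dbp as a covariate it was -0.99 (SE 0.41, adjusted p = 0.453).

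The other 5 members differed by less than 0.2. Klf11, the closest relative of Klf10, had a mean of 7.71 ± 0.15 with penicillin and 7.90 ± 0.27 in controls (SD, n = 6 each), with its highest value, 8.38, in control 2, without which the difference of -0.19 was -0.094. Klf3 averaged 10.21 ± 0.25 with penicillin and 10.36 ± 0.18 in controls (SD, n = 6 each), a difference of -0.14 that was -0.062 without penicillin 5. Their 95% intervals, -0.44 to 0.063 for Klf11 and -0.39 to 0.11 for Klf3, include 0. Klf9 averaged 12.99 ± 0.15 with penicillin and 13.00 ± 0.25 in controls (SD, n = 6 each), a difference of -0.0076 (95% interval -0.25 to 0.23). Its highest values, 13.39 and 13.24, were in control 1 and control 3. Klf13, a repressor of growth genes that also acts in T cells, averaged 9.05 ± 0.46 with penicillin and 8.95 ± 0.50 in controls (SD, n = 6 each), a difference of 0.10 (95% interval -0.43 to 0.63). Klf15, a regulator of amino acid breakdown and gluconeogenesis, averaged 10.71 ± 0.42 with penicillin and 10.68 ± 0.18 in controls (SD, n = 6 each), a difference of 0.030 (95% interval -0.33 to 0.40). Penicillin arrays took both the lowest Klf15 level, 10.19 in penicillin 5, and the highest, 11.35 in penicillin 1.

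**Figure D2:**
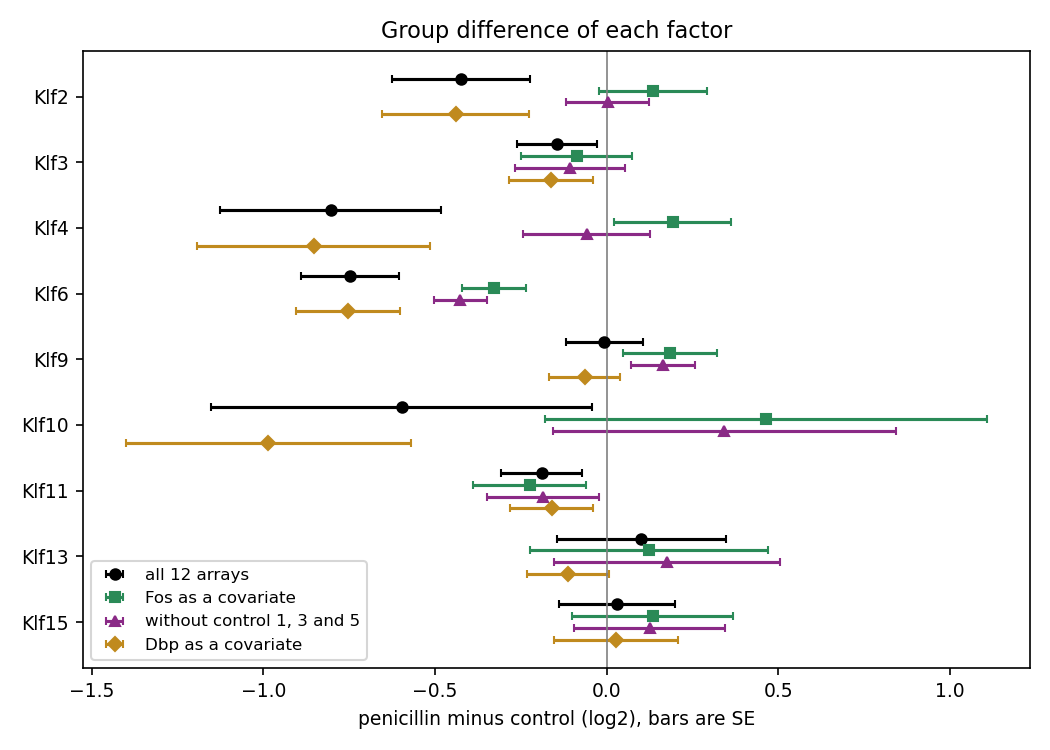
Difference between penicillin and control (log2) for each factor, with bars of 1 SE, from the fit over all 12 arrays, with Fos as a covariate, without control 1, 3 and 5, and with Dbp as a covariate. Klf3, Klf6 and Klf11 stay below 0 in all 4 fits. Klf2, Klf9 and Klf10 lie above 0 with Fos as a covariate and without the 3 arrays, and Klf4 lies above 0 with Fos as a covariate.

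Other probesets of a gene gave a second view where they existed. All 5 probesets of Klf6 were lower with penicillin, from -0.13 on the dimmest to -0.89, and the 3 that passed the filter differed by -0.75 to -0.89. Of these 3, the other two ran over the arrays at r = 0.951 and 0.954 with the one used. Both Klf4 probesets were lower, by -0.80 and -0.65. All 3 Klf13 probesets were higher, by 0.011 to 0.18, of which 1 was dim and followed the one used weakly (r = 0.274). Klf9 had 6 of 7 probesets lower, from -0.0076 to -0.12, and Klf3 had 5 of 7 lower. Those of Klf3 disagreed most: the second brightest gave -0.19 (r = 0.743 with the one used) and the third 0.040 (r = 0.258). Klf2, Klf10, Klf11 and Klf15 had 1 probeset each.

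**Figure D3:**
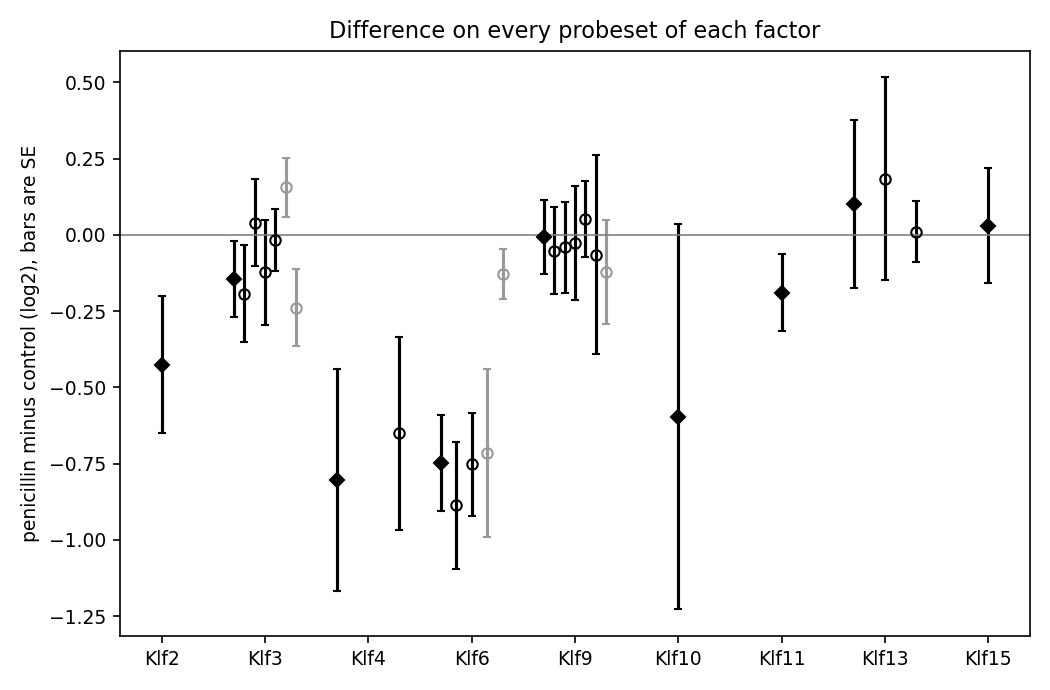
Difference between penicillin and control (log2) on every probeset of each factor, with bars of 1 SE. Filled diamonds are the probesets used, open circles are others, and grey marks those under the filter on dim probesets. The 5 probesets of Klf6 all lie below 0, those of Klf13 above 0.

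Fos levels split the arrays into separate clusters. Penicillin arrays stood at 5.84 to 6.79 and controls at 6.53 to 11.85, with control 1, control 3 and control 5 at 11.29, 11.33 and 11.85 and no other array above 7.46. A correlation with Fos over all 12 arrays would mostly restate this split, and none was tested. In these 3 arrays Klf2, Klf4 and Klf6 stood above all 9 others, whereas the 3 were spread among the others for Klf3, Klf13 and Klf15. For Klf11, control 1, control 3 and control 5 stood at 7.95, 7.86 and 7.89. That was below control 2 (8.38) but above all other arrays, of which penicillin 4 was the highest (7.85). Klf9 and Klf10 were highest in control 1 and control 3 but not in control 5, which stood at 12.87 and 8.34.

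Among the 9 arrays of lower Fos, 0 members and 0% of 11898 genes passed limma's test of the slope on Fos (704 genes at an unadjusted p under 0.05). Klf6 had the highest Pearson r with Fos, 0.651 (exact permutation p = 0.0563, Spearman rho 0.767, exact p = 0.0214, limma adjusted p = 0.807), and r = 0.591 without the 2 arrays farthest in Fos. Both genes also differed between the groups within these arrays, and on deviations from group means r was -0.097. Klf4 followed at r = 0.434 (exact permutation p = 0.246) with rho 0.483, and Klf2 at r = 0.363 (exact permutation p = 0.336) with rho 0.40. For Klf2 the 2 arrays farthest in Fos, control 4 and control 6, lowered the value: without them r was 0.926 over 7 arrays (exact permutation p = 0.00278, limma adjusted p = 0.276). These 7 were the 6 penicillin arrays and control 2, so values over the 7 and over the 6 are not separate evidence. On deviations from group means over the 9 arrays r was 0.544 for Klf2 (exact permutation p = 0.131). That of Klf13 was -0.428 (exact permutation p = 0.248). Over the 6 penicillin arrays alone Klf2 gave r = 0.927 (exact permutation p = 0.00833, limma adjusted p = 0.459). Klf6 gave r = 0.771 over them (exact permutation p = 0.0389, limma adjusted p = 0.714). Klf13 ran the other way, at r = -0.799 over the same 6 arrays (exact permutation p = 0.0389, limma adjusted p = 0.484) and at -0.830 over the 7 arrays (exact permutation p = 0.0230, limma adjusted p = 0.291). Klf9 gave r = -0.801 over the 9 arrays on the mean of all its probesets (exact permutation p = 0.0103, limma adjusted p = 0.801). Klf9, Klf10, Klf11, Klf13 and Klf15 had r from -0.646 to -0.107 over the 9 arrays on the probesets used, and Klf3 0.222, with limma adjusted p of 0.807 or more. The main fits held 18 relations, 9 to each of the 2 genes. Other settings added more, of which 93 were the same in direction and call, 9 were reversed and 1 lost its call. The values over 7 arrays, over penicillin arrays alone and on the mean of all probesets come from these settings. No permutation p was adjusted for the number of relations.

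Dbp levels ran from 7.80 to 12.05 with penicillin and from 6.44 to 11.96 in controls, without a gap wide enough to separate clusters, so all 12 arrays were used. Klf13 was the 1 member of 9 that passed, as did 2.41% of all genes (287 of 11898). Its Pearson r with Dbp was 0.893 (permutation p = 0.00026), its rho 0.818 (permutation p = 0.00192) and its limma adjusted p 0.00272, with a slope of 0.20 per log2 unit of Dbp. The r was 0.955 without the 2 arrays farthest in Dbp, 0.900 on deviations from group means and 0.891 in the 9 arrays of lower Fos, where it also passed (limma adjusted p = 0.0119), as did 2.64% of genes. With each array left out in turn it ran from 0.879 to 0.936, and every such fit passed. The call ended with the replicate number of the labels as a block: r was 0.761 on deviations from the mean of each number, with a limma adjusted p of 0.506. In that fit 0 of 11898 genes passed limma's test, with 1021 at an unadjusted p under 0.05, and the permutation p above takes no account of arrays that share a number. The 3 highest Klf13 levels, 9.71 in control 6, 9.68 in penicillin 1 and 9.48 in penicillin 6, were in arrays with Dbp near 12, and the lowest, 8.37 in control 2, in an array with Dbp at 7.65. The order was not exact: penicillin 5, with the highest Dbp (12.05), had Klf13 at 9.08, below 9.24 in control 1 and 9.09 in control 3, and control 4, with the lowest Dbp (6.44), had 8.55.

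Klf10 came next, with r = 0.588 to Dbp (permutation p = 0.0485, rho 0.559, limma adjusted p = 0.233), which did not pass, and r = 0.374 without the 2 arrays farthest in Dbp. In the 9 arrays of lower Fos r was 0.775 (exact permutation p = 0.00627, limma adjusted p = 0.0773). Klf9 had r = 0.523 (permutation p = 0.0819, rho 0.531, limma adjusted p = 0.381). Klf15, whose level is known to follow the time of day in mouse heart, had r = 0.031 here (rho 0.070, limma adjusted p = 0.974). The remaining members had r from -0.347 for Klf11 to 0.056 for Klf3.

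**Figure D4:**
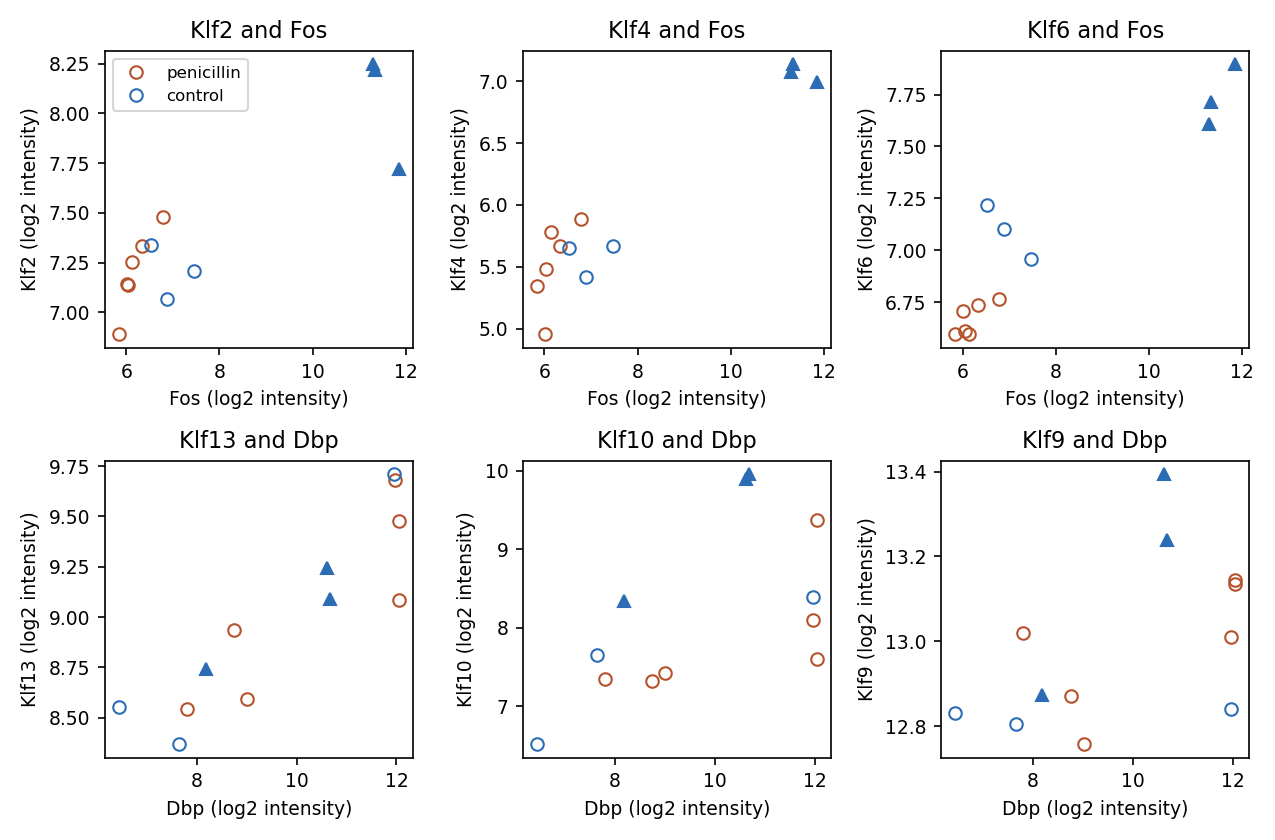
Level of Klf2, Klf4 and Klf6 against Fos (top) and of Klf13, Klf10 and Klf9 against Dbp (bottom), all in log2 intensity, 1 point per array. Triangles are control 1, control 3 and control 5. In the top panels these 3 stand apart from the other 9 arrays, and Klf13 rises with Dbp over all 12 (r = 0.893).

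The genes whose pattern over the 12 arrays was most like that of each member, by Pearson r among the genes tested, are given as a description. The likeness of Klf2, Klf4 and Klf6 is dominated by the 3 arrays of high Fos. For Klf4 they were Atf3 (0.974), Fos (0.950) and Jun (0.944), all rapid-response factors. For Klf6 they were Fos (0.939), Zfp622 (0.934) and Egr1 (0.931), and for Klf2 they were Egr2 (0.950), the stress-response factor Atf4 (0.939) and Pvr (0.939). Klf10 was nearest to Csrnp1 (0.927), Gadd45a (0.913) and Rbm4b (0.904). Klf13 was nearest to Nrg4 (0.962), Ccdc85b (0.953) and the clock repressor Per2 (0.951). Klf9 was nearest to Mad2l1bp (0.943), the cytokine feedback inhibitor Cish (0.934) and Arid5b (0.905), and Klf15 to Arrdc2 (0.930), Slc8a1 (0.918) and Fam214a (0.889). Klf3 was nearest to Synj1 (0.901), Thap2 (0.881) and Fh1 (0.870), and Klf11 to Mindy2 (0.879), Kdm6b (0.825) and Khnyn (0.815). Between members the closest pairs were Klf2 with Klf4 (0.929), Klf4 with Klf6 (0.861), Klf2 with Klf6 (0.795) and Klf9 with Klf10 (0.758). Klf9 and Klf10 were both highest in control 1 and control 3, and their likeness without these arrays was not computed.

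Relatives and partners of the family differed little between the groups. Of 8 other Kruppel-like factors 5 were tested, 3 higher and 2 lower, with a median difference of 0.017 and none called. Those with the smallest p were Klf14 (-0.11, SE 0.08) and the red cell factor Klf1 (0.21, SE 0.24). Of 6 Sp factors tested, which bind similar sequences, 3 were higher and 3 lower (median 0.0019), led by Sp6 (0.14) and Sp1 (0.16). Of 11 cofactors 6 were higher and 5 lower (median 0.0011), led by the ubiquitin ligase Wwp1 (0.13) and the acetyltransferase Kat2b (-0.065). None of these genes passed.

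Genes upstream or downstream of single members were looked at in the same way, and again none passed. Of 14 immediate early genes tested all 14 were lower, against 47.2% of all genes, and 11 of them were lower at an unadjusted p under 0.05, against 3.66% of all genes, with a median of -1.06. They were led by Fos (-3.03, SE 0.91) and Egr1 (-2.80, SE 0.92). The controls varied more: the mean of the list, each gene centred on its own mean, ran from -0.79 to -0.52 with penicillin and from -0.73 to 1.96 in controls, and Fos had an SD of 0.33 with penicillin and 2.51 in controls. Of 11 genes of the TGF-beta pathway, which induces Klf10 and Klf11, 5 were higher and 6 lower (median -0.011). At an unadjusted p under 0.05 stood 3 lower and 0 higher, against 3.66% and 4.33% of all genes. The lower ones included the corepressor Tgif1 (-0.32, SE 0.10) and the matrix protein Ccn2 (-0.64, SE 0.23). Of 12 glucocorticoid-responsive genes, 11 were lower (median -0.28), against 47.2% of all genes, and 0 stood at an unadjusted p under 0.05. The mean of this list overlapped between the groups, from -0.52 to 0.51 with penicillin and from -0.65 to 0.83 in controls. The list was led by the metallothionein Mt2 (-1.95, SE 0.94) and Zbtb16 (-1.10, SE 0.55), while the receptor Nr3c1 was higher by 0.22 (SE 0.13). Of 8 genes of the Erk5 and Mef2 pathway and the endothelial targets of Klf2 and Klf4, 4 were higher and 4 lower, led by the Klf2 target thrombomodulin, Thbd (-0.55, SE 0.23), and by Mef2d (0.070). Of 10 genes of amino acid breakdown and gluconeogenesis, processes that Klf15 controls, 7 were higher (median 0.042), against 52.8% of all genes. At an unadjusted p under 0.05 stood 3 higher and 0 lower, against 4.33% and 3.66% of all genes. They were led by the transaminase Gpt2 (0.18, SE 0.07) and the proline oxidase Prodh (0.24, SE 0.10). Of 16 clock and PAR bZIP genes 9 were higher (median 0.12), led by Hlf (0.42, SE 0.15) and Per3 (0.90, SE 0.55).

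Klf2, Klf4 and Klf6 are also made by cells other than hepatocytes, and in whole liver fewer cells of a type and less RNA per cell cannot be told apart. The mean of 9 endothelial markers, each centred on its own mean, ran from -0.15 to 0.13 with penicillin and from -0.14 to 0.26 in controls on the log2 scale. That of 7 Kupffer cell markers ran from -0.28 to 0.16 with penicillin and from -0.22 to 0.39 in controls, and that of 5 markers of stellate cells and fibroblasts from -0.52 to 0.28 with penicillin and from -0.22 to 0.37 in controls. The mean of 4 bile duct markers ran from -0.53 to 0.077 with penicillin and from 0.068 to 0.27 in controls. Of 5 neutrophil markers only S100a8 and S100a9 were tested, and Ly6g, Camp and Ngp were not. Both tested genes lay lower in every penicillin array than in any control, by -1.94 and -1.63, as did 0.151% of all genes. Of 4 tested markers of T and NK cells 3 were higher with penicillin, led by Cd3d (0.23, SE 0.08), and their mean ran from -0.068 to 0.16 with penicillin and from -0.15 to 0.032 in controls. Both tested markers of B and plasma cells were higher, Cd79b by 0.28 and Ighm by 0.32, with a mean of -0.41 to 0.78 with penicillin and -0.61 to 0.60 in controls. The part of these cells in the levels of the factors was not tested. The values carry no detection calls, so no marker can be called absent.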

How the data were processed

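Liver RNA of 12 mice was measured on Affymetrix 3-prime expression arrays. The deposited values are probeset intensities on a linear scale, made with RMA by the authors, per the submitters' processing notes; its version and settings are not given in the sources used here. Because RMA aligns the distributions of all arrays, it hides any shift common to most genes. Intensities ran from 4.92 to 36550, and log2 was taken here, with no offset and no further normalization. Array medians ran from 4.70 to 4.76 on the log2 scale. The 45101 probesets included 64 controls. Symbols were updated through gene identifiers with the RefSeq table of GRCm38.p6, which also gave the start regions. Probesets under the median mean level (4.73) were left out, and each gene kept its probeset of highest mean.

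Penicillin was compared with control by limma 3.58.1 in R 4.3.3 over 11899 genes, two-sided, with a threshold of 0.05. The number of arrays limits the precision. Single values were tested by exact permutation. Relations to Fos and Dbp used Pearson and Spearman correlations, with exact permutation under 10 arrays and 100000 permutations otherwise (scipy 1.17.1), and limma's slope adjusted over all genes. Where the largest gap between arrays exceeded 0.333 of the range, with 2 or more arrays on both sides, only clusters of 6 or more arrays were used. Tests were checked on simulated data. The tests treat the mice as independent samples.

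The members, the lists, the arrays left out and the covariates were chosen with earlier results of these data known. The genes named were the 9 members, Fos, Dbp, Nr3c1, the 3 genes most like each member and the 2 of smallest p in each pathway list; cell type markers, Cps1 among them, were named beyond this rule after their values were seen. Alternatives were other filters, normalizations, offsets, probeset summaries, priors, weights, covariates, a replicate block and omitted arrays.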

Additional observations from a re-analysis of the deposited data

Results flagged for a closer look

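Klf15 in control 5 stood at 11.02 in log2 intensity, far above the other 5 controls, which lay at 10.53 to 10.68. Its gap to the nearest control was 0.690 of the whole range of the group, past the critical value of Dixon's test. In all 22 groups of 6 arrays were examined (9 members, Fos and Dbp in each of the 2 groups), and chance flags about 1 in 20.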

How the results depend on the processing

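In every setting tried, 0 genes passed in the comparison of penicillin with control, members included. Of the 232 member differences computed under other settings, 208 kept their direction. With Fos as a covariate Klf2 was at 0.13, Klf4 at 0.19, Klf9 at 0.18 and Klf10 at 0.46, and with Fos and Dbp as covariates Klf2 was at 0.14, Klf4 at 0.17, Klf9 at 0.11 and Klf13 at -0.18. Klf13 was at -0.11 with Dbp as a covariate, and also without control 6, penicillin 1, penicillin 5 and penicillin 6 (-0.109). Without control 1, control 3 and control 5, Klf2 was at 0.0030, Klf9 at 0.16 and Klf10 at 0.34. Repeated quantile normalization gave 0.0051 for Klf9, and array weights -0.089 for Klf15. With single arrays left out, the ranges that crossed 0 were -0.046 to 0.072 for Klf9, -0.025 to 0.25 for Klf13 and -0.097 to 0.14 for Klf15. Klf6 ran from -0.84 to -0.65 with single arrays left out. Klf3, Klf6 and Klf11 kept their direction in every setting that gave them a value. Under the stricter filter Klf6 and Klf4 had no value, since both fell below it. Of the relations to Fos, that of Klf3 was -0.130 without the 2 arrays farthest in Fos, -0.161 with the mean of all probesets and -0.040 in penicillin arrays alone. That of Klf6 was -0.097 on deviations from group means, and that of Klf11 was 0.078 without the 2 farthest arrays. To Dbp, deviations from group means gave 0.073 for Klf2, 0.160 for Klf4 and 0.041 for Klf6, and the mean of all probesets gave 0.019 for Klf4. Within the penicillin arrays alone the relation to Dbp was not run, since they split into clusters of 3. The relation to Dbp among the 9 arrays of lower Fos, and that of Klf13 with single arrays left out or with the replicate block, were chosen after seeing the data. The causes were not tested.

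The replicate block gave 0 genes (smallest adjusted p = 0.0732), with Klf6 at -0.75 (adjusted p = 0.354). The labels share numbers between the groups without saying why. Same-numbered arrays correlated from -0.255 to 0.385 in their deviations from group means, and 4 of the 6 pairs lay at 0.252 or more. The control of the same number was the best match for 2 of the 6 penicillin arrays. These values do not settle a pairing, and a pairing was not taken as given. The SE of the Klf13 difference was 0.098 with the block and 0.245 with no replicate block, and its relation to Dbp no longer passed (r = 0.761, adjusted p = 0.506).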
